A study of Mus musculus with 4 samples.

Results

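The nuclear genes of the mitochondrial respiratory chain were examined in STMN1-/- and STMN1+/+ mouse embryonic fibroblasts (MEFs). Members were taken by name: every gene symbol on the array that begins with Nduf followed by a, b, s, v or c, with Uqcr, with Cox and a number between 4 and 8, or with Atp5, together with Sdha to Sdhd, Cyc1 and Cycs. The rule used no measured value and found 84 of 27962 gene names, on 117 probes. By name alone, 37 of these were counted under complex I, 4 under complex II, 8 under complex III, 18 under complex IV and 16 under complex V. Cycs, cytochrome c, stands alone as a mobile carrier. These counts include 3 genes that encode no subunit and were tested. They are Ndufaf1, a complex I assembly factor, Cox4nb, now named Emc8 and part of a membrane protein complex of the endoplasmic reticulum, and Atp5s. Atp5s is now named Dmac2l and was once known as coupling factor B.

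Both groups of cells were of strain C57BL/6 and came from embryos of heterozygous parents, grown as lines from individual embryos in medium with glucose, pyruvate and serum. In the STMN1-/- cells a neomycin cassette disrupts Stmn1, the gene of stathmin, a protein that destabilises microtubules. Total RNA of the 2 genotypes was labelled with Cy3 and Cy5 and hybridised together to each of 4 Agilent arrays, with STMN1-/- RNA in Cy3 on arrays 1 and 2 and in Cy5 on arrays 3 and 4. Which cell line or extract went onto each array is stated neither in the labels nor in the methods. The p-values below therefore reflect differences among arrays only, and these may be technical.

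The respiratory chain passes electrons from NADH (complex I) and succinate (complex II) through ubiquinone to complex III, from there through cytochrome c to complex IV, and so to oxygen. Complexes I, III and IV pump protons out of the mitochondrial matrix, and complex V, the ATP synthase, makes ATP as they flow back. Most subunits are encoded in the nucleus, while the central membrane subunits of complexes I, III, IV and V are encoded in mitochondrial DNA. Several subunits of complex IV have paralogues made mainly in heart and skeletal muscle beside those made in most tissues.

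All values are log2 ratios of STMN1-/- over STMN1+/+ processed signal, averaged over the arrays, and a gene with several probes is represented by its brightest. A gene counts as called where the limma test against 0 gave a Benjamini-Hochberg adjusted p under 0.05 over all probes tested. Of the 84 members, 83 were tested, and the exception was Cox8c, a testis paralogue of complex IV that was not well above background in either genotype. Of 18782 genes tested on the whole array, 2291 (12.2%) were called higher and 2172 (11.6%) lower in STMN1-/- MEFs. Among the 83 members, 1 was called higher, Cox6a2, and 2 were called lower, Cox8b and Ndufb5, while 80 did not pass the test. At an unadjusted p under 0.05 there were 2 members higher and 10 lower, against 3621 (19.3%) and 3564 (19%) of all tested genes. As a check of the labels, the 2 Stmn1 probes were lower on all 4 arrays, with log2 ratios of -2.16 ± 0.06 and -0.39 ± 0.07 (SE, n = 4 arrays, limma adjusted p = 0.000603 and 0.0182). The study states that its Stmn1 probe also matches another locus.

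The members were bright and close to 0. Their median signal was 99704, against 2657 over all tested genes, and every member of complexes I, II, III and V lay above the median signal of all genes. The median size of the log2 ratio, without its sign, was 0.087 for members and 0.173 for all tested genes. It was 0.158 for the 4909 tested genes that fell within the middle 80% of the members' signals, of which 674 were called higher (13.7%) and 539 lower (11%). These genes were still dimmer than the members, with a median signal of 29486, so they are not matched for brightness. Of the members, 6 differed by at least 1.2-fold in either direction and 2 by at least 2-fold, Cox6a2 and Cox8b. Within that signal range, 1383 of the 4909 genes differed by at least 1.2-fold.

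**Figure D1:**
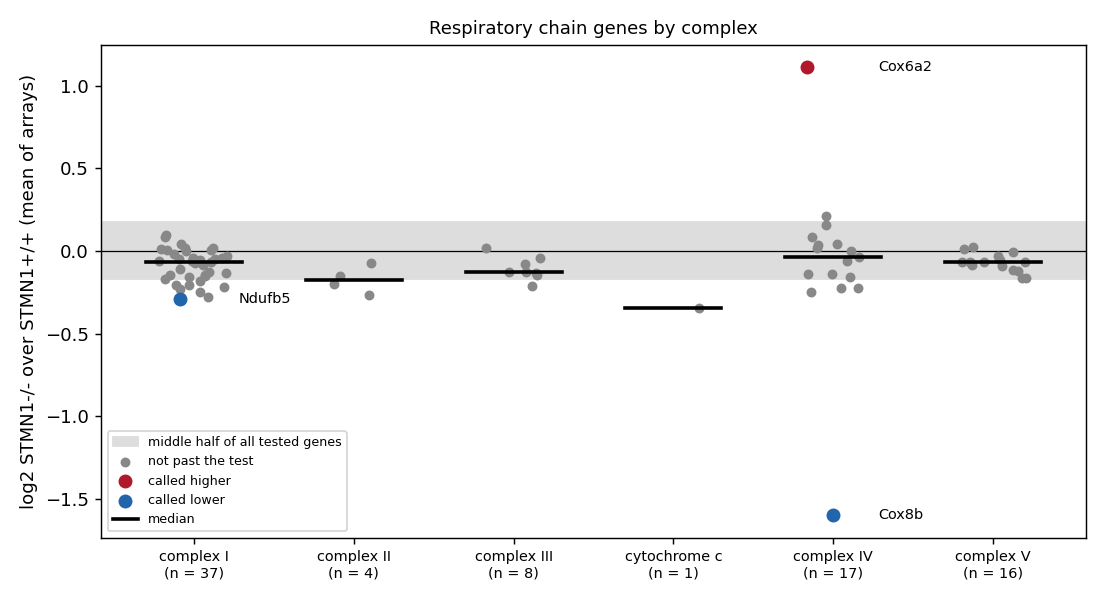
Mean log2 ratio over the arrays (y axis, STMN1-/- over STMN1+/+ MEFs) for each of the 83 tested members, grouped by complex (x axis), with a black bar at each median and a grey band from the lower to the upper quartile of all tested genes, called genes in red (higher) or blue (lower). Most members lie just below 0, Cox6a2 stands at 1.11 and Cox8b at -1.60.

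The medians lay slightly below 0. Over all members the median log2 ratio was -0.07, with 64 members below 0 and 19 above, against 0.00 over all tested genes. It was -0.07 in complex I, -0.17 in complex II, -0.12 in complex III, -0.03 in complex IV and -0.07 in complex V. Its value on single arrays ran as -0.11, -0.13, -0.02 and -0.05 on arrays 1 to 4, with an SD of 0.05. All 4 were below 0, and the arrays differed from each other by up to more than the size of the median. In bulk RNA such as this, fewer cells of a type and less RNA per cell cannot be told apart.

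The medians also differed between the dye orientations. With STMN1-/- RNA in Cy3 the median over members was -0.13, and in Cy5 it was -0.05. Over all tested genes these medians were -0.02 and 0.03. For 35 of the 83 members the orientations differed in sign, as they did for 6561 of all 18782 tested genes. Among the 4909 genes within the middle 80% of the members' signals, 1422 differed in sign. In complex V the median was -0.12 in Cy3 and 0.02 in Cy5, with 12 of its 16 members changing sign, and in complex I it was -0.17 and -0.06, with 16 of 37 changing sign. Complex III differed less, at -0.13 in Cy3 and -0.10 in Cy5 (1 of 8 changing sign). In complex IV the median was -0.04 in both (5 of 17 changing sign), but its single genes differed between the orientations in either direction. The median size of that difference, without its sign, was 0.15 in complex IV. It was 0.20 in complex I, 0.05 in complex III, 0.17 in complex V and 0.20 over all tested genes. Across all tested probes, which are not independent replicates, arrays of the same orientation correlated at r = 0.689 and 0.703 and arrays of opposite orientation at r = 0.445 to 0.489.

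**Figure D2:**
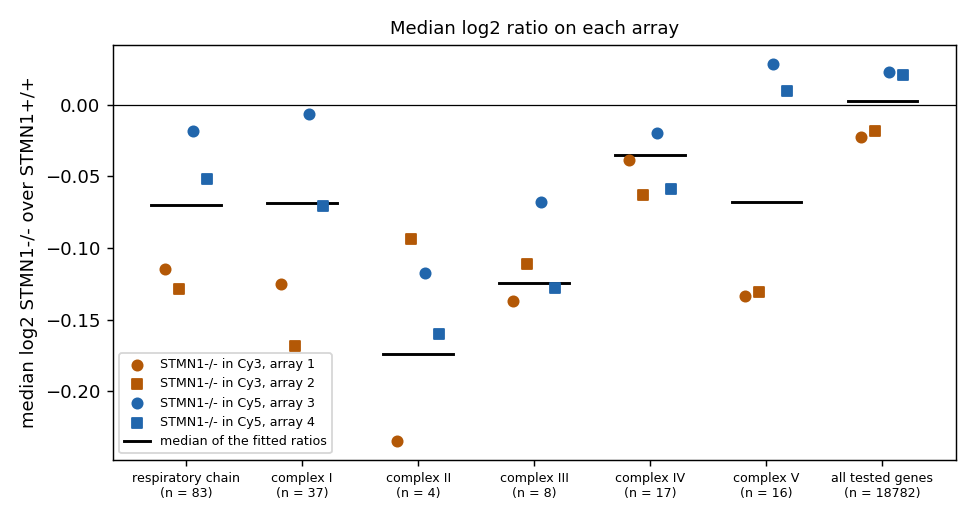
Median log2 ratio (y axis, STMN1-/- over STMN1+/+ MEFs) on each of the 4 arrays, for all members, each complex and all tested genes (x axis), with STMN1-/- RNA in Cy3 in brown and in Cy5 in blue, and a black bar at the median of the averaged ratios. The points of complex V lie below 0 in Cy3 and above 0 in Cy5, and those of complex III lie between -0.14 and -0.07 in both.

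A coefficient for the dye was called for 0 of the 83 members and for 0 of 18730 genes (0%) by limma, with a smallest adjusted p of 0.0601. At an unadjusted p under 0.05 it was found in 25 members (30.1%) and in 5573 genes (29.8%). Of those 25, 21 had the higher ratio where STMN1-/- RNA was in Cy5 and 4 where it was in Cy3, and of the 5573 genes, 3209 and 2364.

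With the dye taken up as a second coefficient the spread between arrays of 1 orientation sets the error, and more genes passed the test everywhere. Of 18730 genes, 3799 (20.3%) were then called higher and 3649 (19.5%) lower. Among the members, 2 (2.41%) were called higher and 18 (21.7%) lower. The share for the lower calls was close to that over all genes, and the share for the higher calls was below it. The members called higher were Cox6a2 and Cox7a1. The 18 called lower were Ndufa2, Ndufa10, Ndufa12, Ndufb2, Ndufb3, Ndufb5, Ndufb8 and Ndufs6 of complex I, Sdhd of complex II, Uqcrfs1 of complex III, Cox4i1, Cox7a2, Cox7b, Cox7c and Cox8b of complex IV, Atp5b and Atp5g3 of complex V, and Cycs. Apart from Cox8b, the lower calls had log2 ratios from -0.30 (Ndufb3) to -0.15 (Ndufb2). This fit leaves 2 residual degrees of freedom per probe.

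Cox6a2, the heart and skeletal muscle form of subunit VIa of complex IV, was the only member called higher. Its signal was 1120, 1108, 1011 and 1184 on arrays 1 to 4 in STMN1-/- MEFs, against 471, 511, 500 and 563 in STMN1+/+ MEFs. The genotypes did not overlap, and the arrays differed little, with log2 ratios of 1.25, 1.12, 1.02 and 1.07. The mean was 1.11 ± 0.06 (SE, n = 4), a 2.16-fold higher level (limma adjusted p = 0.00108). Its paralogue Cox6a1, the form made in most tissues, had a log2 ratio of 0.03 ± 0.15 (adjusted p = 0.89) and split by dye, at -0.22 and -0.32 in Cy3 and 0.31 and 0.38 in Cy5. With raw signals corrected by normexp and loess instead of the deposited processing, the Cox6a2 ratio was 0.49 (limma adjusted p = 0.0538).

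Cox8b, the heart and skeletal muscle form of subunit VIII, also found in mouse brown fat, was called lower. Its signal was 35, 80, 85 and 49 in STMN1-/- MEFs, against 200, 207, 135 and 178 in STMN1+/+ MEFs. The genotypes did not overlap, but the probe was dim, being well above background on no array in STMN1-/- MEFs and on 3 arrays in STMN1+/+ MEFs. The log2 ratios of -2.50, -1.37, -0.66 and -1.87 varied more than those of any other named member, and their mean was -1.60 ± 0.30 (SE, n = 4, limma adjusted p = 0.0222). The mean corresponds to a 3.03-fold lower level by means of log2 signals. The measured STMN1-/- signal exceeded the dimmest signal that any probe had well above background on each array, so no floor entered this value. It is therefore an estimate and not a bound, and its size is uncertain because the probe was not well above background in STMN1-/- MEFs. Under the alternative settings the log2 ratio ran from -1.91 to -0.16. After normexp and loess the ratio was -0.16 (limma adjusted p = 0.125), and without array 2 or without array 4 the adjusted p was 0.0706 or 0.0822. The paralogue Cox8a, the form of most tissues, had 307540, 338533, 295746 and 290509 units in STMN1-/- MEFs, against 310457, 308854, 307497 and 302587 units in STMN1+/+ MEFs, a log2 ratio of 0.00 ± 0.06 (adjusted p = 0.992).

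Ndufb5, an accessory subunit in the membrane arm of complex I, was the other member called lower. Its signal was 10641, 10510, 10235 and 9649 in STMN1-/- MEFs, against 13317, 12255, 12703 and 12003 in STMN1+/+ MEFs. Every STMN1-/- value lay below every STMN1+/+ value, and the log2 ratios of -0.32, -0.22, -0.31 and -0.32 showed little difference between the dyes. The mean was -0.29 ± 0.05 (SE, n = 4), a 1.23-fold lower level (limma adjusted p = 0.0209). With any 1 array left out the size hardly moved, at -0.32 to -0.28, but the adjusted p became 0.0672 to 0.0868.

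The calls on these 3 genes rest on 1 probe each. The first 30 bases of these 60-base probes are shown because the calls turn on them, with the probe's position in mouse build mm7 as the array files give it (a start above the end marks the minus strand). Cross-matches were not analysed here.
Cox6a2, chr7:124302263-124302204: agcaatcttcaaattggccttctgcacacc
Cox8b, chr7:137316275-137316216: ctataaaaagagctccgcagcatgaagttg
Ndufb5, chr3:32560081-32560140: cagggtagtaatgaaacctggaggtctggg

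The other isoform families of complex IV showed smaller differences. Cox7a1, the heart and skeletal muscle form of subunit VIIa, had 2091, 2355, 2256 and 2547 units in STMN1-/- MEFs, against 2030, 2039, 1770 and 2126 units in STMN1+/+ MEFs. The groups overlap, though the ratio was above 0 on all 4 arrays, with a mean of 0.22 ± 0.07 (limma adjusted p = 0.0925). Cox7a2, the form made in most tissues, had 123172, 143137, 145820 and 147097 units in STMN1-/- MEFs, against 152708, 173334, 159771 and 165071 units in STMN1+/+ MEFs. Every STMN1-/- value lay below every STMN1+/+ value, with a mean log2 ratio of -0.22 ± 0.06 that did not pass the test (limma adjusted p = 0.059). With the dye as a second coefficient the adjusted p was 0.0371 for Cox7a1 and 0.0171 for Cox7a2. Cox7a2l, a related protein that helps complexes III and IV associate, stood at 0.09 ± 0.07 (n = 3 arrays, adjusted p = 0.453).

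Cox4i1, the main form of subunit IV, differed by dye orientation, with log2 ratios of 0.05 and -0.15 in Cy3 against -0.40 and -0.40 in Cy5, and a mean of -0.23 ± 0.10 (adjusted p = 0.168). Cox4i2, the lung form, was dim at 122 against 110 units and stood at 0.16 ± 0.07 (adjusted p = 0.164). Neither Cox6b1 (-0.03 ± 0.05, adjusted p = 0.683) nor the testis form Cox6b2 (0.02 ± 0.06, adjusted p = 0.858) passed the test. Cox7b, of which only 1 form is on the array, had ratios of -0.36 and -0.45 in Cy3 and -0.09 and -0.08 in Cy5, below 0 on each array (mean -0.25 ± 0.09, adjusted p = 0.112). The 3 genes of the membrane ring of complex V, Atp5g1, Atp5g2 and Atp5g3, encode the same mature protein and stood at -0.09 ± 0.05, -0.05 ± 0.06 and -0.16 ± 0.16 (limma adjusted p = 0.282, 0.589 and 0.512).

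**Figure D3:**
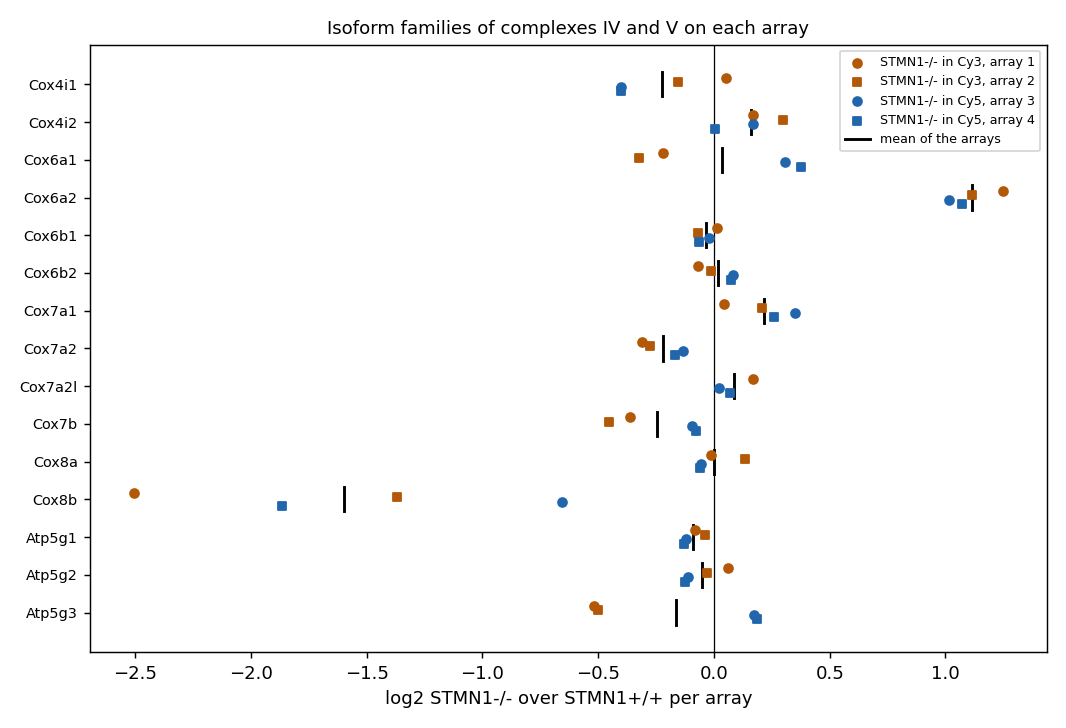
Log2 ratio of STMN1-/- over STMN1+/+ MEFs (x axis) of the paralogue families of complexes IV and V (y axis) on each of the 4 arrays, with STMN1-/- RNA in Cy3 in brown and in Cy5 in blue, and a bar at the mean. Cox6a2 lies between 1.02 and 1.25 on every array, Cox8b between -2.50 and -0.66, and Cox6a1 and Atp5g3 fall on opposite sides of 0 by dye.

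The core subunits of complex I carry the flavin and the iron-sulfur clusters. Of these, Ndufv1, Ndufv2, Ndufs1, Ndufs3, Ndufs7 and Ndufs8 did not pass the test. Ndufs8 had the largest ratio among them, -0.22 ± 0.08 (adjusted p = 0.136), and its arrays ran as -0.06, -0.35, -0.38 and -0.07, so the difference came from 1 array of each orientation. Ndufv1, which holds the flavin and the NADH site, was above 0 in Cy3 at 0.12 and 0.17 and below 0 in Cy5 at -0.14 and -0.21, for a mean of -0.02 ± 0.09 (adjusted p = 0.921).

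Among the accessory subunits of complex I, Ndufb5 was called, and the next lowest adjusted p-values were those of Ndufa12 and Ndufb3. Ndufa12, an accessory subunit of the peripheral arm, had 107220, 104060, 97280 and 120260 units in STMN1-/- MEFs, against 139384, 131335, 109445 and 128772 units in STMN1+/+ MEFs (log2 ratio -0.25 ± 0.07, limma adjusted p = 0.0696). The ratio was below 0 on all 4 arrays, though the signals of the groups overlap. Ndufb3, in the membrane arm, had 62290, 66189 and 60479 units in STMN1-/- MEFs, against 81204, 76254 and 71600 units in STMN1+/+ MEFs, on the 3 arrays with a usable spot. These did not overlap (log2 ratio -0.28 ± 0.08, limma adjusted p = 0.0752).

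Complex II, which links the chain to the TCA cycle, had all 4 of its genes below 0 and none past the test. Sdha, the flavoprotein, stood at -0.15 ± 0.09, Sdhb, the iron-sulfur subunit, at -0.07 ± 0.08, and the membrane anchors Sdhc and Sdhd at -0.27 ± 0.21 and -0.20 ± 0.07 (limma adjusted p = 0.28, 0.55, 0.411 and 0.0986). Sdhc rests on array 1, where the ratio was -1.03, against 0.15, -0.03 and -0.15 on the others. Sdhd had 64859, 58907, 53429 and 58824 units in STMN1-/- MEFs, against 68279, 64522, 66463 and 70717 units in STMN1+/+ MEFs, with 1 STMN1-/- value above the lowest STMN1+/+ value. With array 1 left out, the complex II median was -0.11.

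Complex III had a median between -0.14 and -0.07 on each array, and 7 of its 8 members were below 0. Its core subunits Uqcrc1 and Uqcrc2 stood at -0.13 ± 0.06 each, and Cyc1, cytochrome c1, at -0.14 ± 0.06. All 3 were below 0 on every array and none passed the test (limma adjusted p = 0.165, 0.17 and 0.139). Uqcrfs1, the Rieske iron-sulfur protein, had ratios of -0.36 and -0.39 in Cy3 and 0.02 and -0.13 in Cy5 (mean -0.21 ± 0.09, adjusted p = 0.159).

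Cycs encodes cytochrome c, which carries electrons to complex IV and is released from mitochondria in apoptosis. Its brightest probe gave 139744, 121345 and 134598 units in STMN1-/- MEFs, against 150411, 169307 and 184625 units in STMN1+/+ MEFs, on the 3 arrays with a usable spot. The groups did not overlap, and the log2 ratio was -0.35 ± 0.11, which did not pass the test (limma adjusted p = 0.0957). By array it was -0.11 on array 2, with STMN1-/- RNA in Cy3, and -0.48 and -0.46 on arrays 3 and 4, in Cy5. The mean thus gives Cy5 more weight, and the dye does not cancel. With the dye as a second coefficient the ratio of this probe was -0.29 (limma adjusted p = 0.0355). A second probe stood at -0.28 ± 0.08 (limma adjusted p = 0.0662), and another, measured on arrays 2 and 3 only, at -0.53 ± 0.09 (adjusted p = 0.0465).

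In complex IV, the matrix-side subunits Cox5a and Cox5b have no paralogue on the array. Cox5a stood at -0.14 ± 0.07 and Cox5b at -0.06 ± 0.07, neither past the test (limma adjusted p = 0.221 and 0.607).

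In complex V, the catalytic subunit Atp5b split by dye, with ratios of -0.45 and -0.44 in Cy3 and 0.18 and 0.05 in Cy5 (mean -0.17 ± 0.14, limma adjusted p = 0.436). Its partner Atp5a1 had a ratio of -0.03 ± 0.06, and the shaft subunit Atp5c1 (n = 3 arrays) one of -0.08 ± 0.09 (limma adjusted p = 0.757 and 0.581). Atp5c1 split by dye, at -0.15 and -0.21 in Cy3 and 0.11 in Cy5. With the dye as a second coefficient its ratio was -0.04. None of the 16 complex V members passed the test, and their ratios ran from -0.17 to 0.03. Of the non-subunits, Ndufaf1 stood at 0.00 ± 0.06, Cox4nb at -0.14 ± 0.06 and Atp5s at 0.03 ± 0.06, none past the test (limma adjusted p = 0.96, 0.181 and 0.801).

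**Figure D4:**
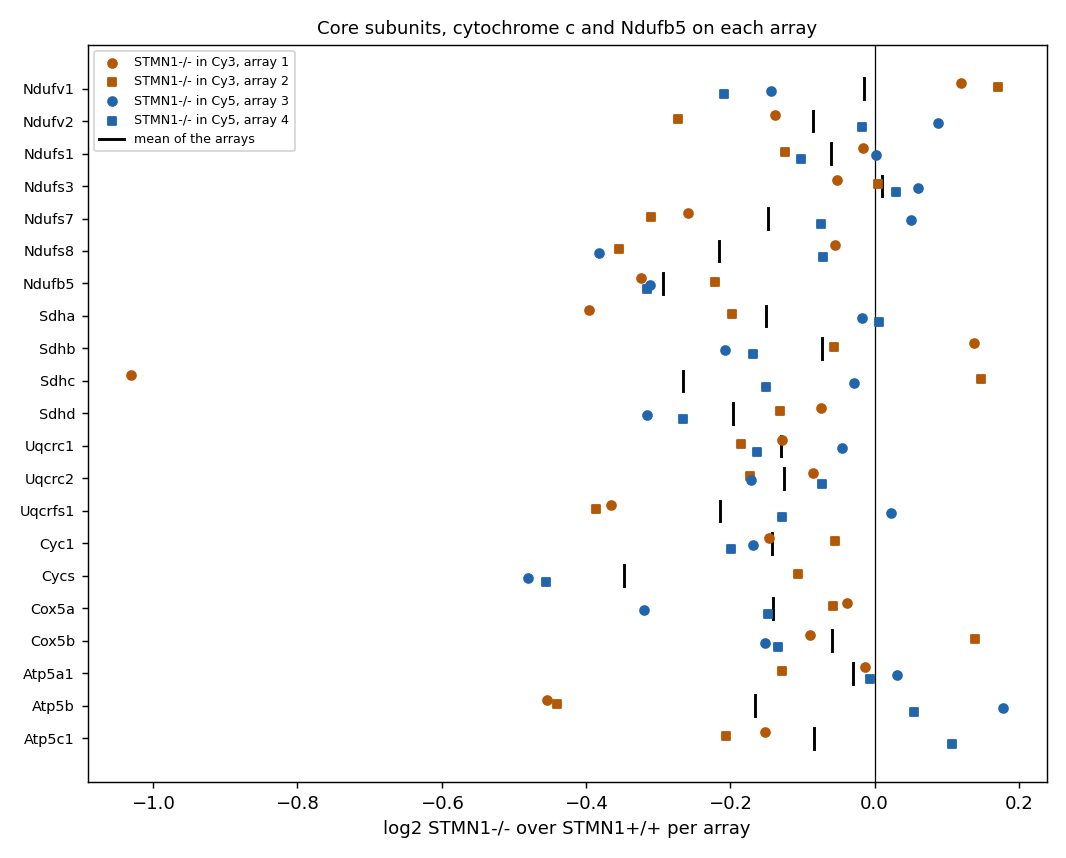
Log2 ratio of STMN1-/- over STMN1+/+ MEFs (x axis) of core subunits, cytochrome c and Ndufb5 (y axis) on each array, with STMN1-/- RNA in Cy3 in brown and in Cy5 in blue, and a bar at the mean. Ndufb5 stays between -0.32 and -0.22, Atp5b and Ndufv1 split by dye, and Sdhc is low on array 1 alone.

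For 21 members several probes were tested. No member had probes called in opposite directions. Agreement between the probes of a gene was not counted over all genes, so the counts here have no background beside them. In 5 genes 1 of the probes was called lower while the brightest was not: Ndufa3 (-0.60 ± 0.10 on the dimmer probe and -0.04 ± 0.08 on the brightest), Ndufab1, the mitochondrial acyl carrier protein (-0.42 ± 0.07 and -0.18 ± 0.07), Ndufs6 (-0.27 ± 0.06 and -0.17 ± 0.08), Ndufa12 (-0.26 ± 0.06 and -0.25 ± 0.07) and Cycs. With the median over the probes of each gene, 5 members (6.02%) were called lower: Cox7a2, Cox8b, Cycs, Ndufab1 and Ndufb5. That setting called 12.9% of all tested genes lower.

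The array files place 3 probes on the mitochondrial chromosome, not all of them named for a subunit. The probe for subunit I of complex IV stood at 0.04 ± 0.05 (limma adjusted p = 0.627), with 288495 units in STMN1-/- MEFs against 280687 in STMN1+/+ MEFs. The probe for NADH dehydrogenase 4 stood at -0.02 ± 0.11 (limma adjusted p = 0.919), and split by dye, at -0.20 and -0.28 in Cy3 and 0.18 and 0.22 in Cy5. The last, named in the files for a cDNA clone only and for no subunit, stood at -0.00 ± 0.13 (limma adjusted p = 0.987). It also split by dye, at -0.26 and -0.26 in Cy3 and 0.17 and 0.33 in Cy5.

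Genes that serve the chain without being subunits were counted from lists. Beside the counts of each list stand the shares over all tested genes, 12.2% called higher and 11.6% lower. The lists are short and no set test was run on them. Of 40 assembly factors tested, 1 was higher and 3 lower, with a median of -0.06. Foxred1 rose by 0.31 ± 0.07, while Acad9 fell by 0.48 ± 0.07, Ndufaf4 by 0.31 ± 0.06 and Atpaf2, which assembles complex V, by 0.27 ± 0.07 (limma adjusted p = 0.0366, 0.0111, 0.0213 and 0.0485). Of 20 regulators of mitochondrial biogenesis, 2 were higher and 2 lower, with a median of -0.11. Ppargc1a, a coactivator of respiratory genes, was at 213 units in STMN1-/- MEFs, against 383 in STMN1+/+ MEFs, and fell by 0.85 ± 0.08, whereas its relative Ppargc1b rose by 0.32 ± 0.05 (limma adjusted p = 0.0038 and 0.0144). Yy1, a transcription factor, fell by 0.27 ± 0.05 (limma adjusted p = 0.028). Tfam, which packages and transcribes mitochondrial DNA, rose by 0.42 ± 0.08 on its brightest probe (adjusted p = 0.0254), but its other 2 probes gave -0.02 ± 0.07 and -0.13 ± 0.09 (adjusted p = 0.844 and 0.319).

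Of 18 TCA cycle genes tested, 1 was higher and 2 lower, with a median of -0.12. Idh2 rose by 0.37 ± 0.09, and Idh3a (n = 3 arrays) and Suclg2 fell by 0.45 ± 0.07 and 0.28 ± 0.06 (limma adjusted p = 0.0368, 0.0239 and 0.0374). Of 19 carriers, inhibitors and subunits outside the name rule, 1 was higher and 3 lower, with a median of -0.13. Slc25a5, the ADP/ATP carrier of dividing cells, had ratios of -0.40, -0.39, -0.30 and -0.33 and fell by 0.35 ± 0.05 (adjusted p = 0.0129). Higd1a, a complex IV partner, fell by 0.24 ± 0.06 and Dhodh, which feeds ubiquinone, by 0.30 ± 0.07, while Aox1 rose by 0.68 ± 0.07 (limma adjusted p = 0.0433, 0.0366 and 0.00503). The mouse Aox1 is a cytosolic aldehyde oxidase and no part of the chain.

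Markers of other cell types also differed. Of 16 muscle markers tested, 9 were called higher and 0 lower, with a median of 0.30, among them Myh3 at 0.62 ± 0.07, Tnnt3 at 0.48 ± 0.12, Myh7 at 0.44 ± 0.06 and Myog at 0.37 ± 0.06 (limma adjusted p = 0.0057, 0.0493, 0.00904 and 0.0141). Their summed signal was 479788 to 590389 on the 4 arrays in STMN1-/- MEFs, against 371199 to 461460 in STMN1+/+ MEFs. Most of it came from Actc1, with a mean of 432751 against 344510 units, so the sum says little about the other markers. Myf6, Des and Tnnt2 stood below 0, at -0.60 ± 0.30, -0.31 ± 0.17 and -0.21 ± 0.06, none past the test (limma adjusted p = 0.218, 0.268 and 0.0604). Myf5 and Ckm were not tested, being dim in both genotypes, and Myod1 stood at 0.03 ± 0.11 (adjusted p = 0.864). The part of these markers in the Cox6a2 result was not tested.

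Of 12 adipocyte markers tested, 1 was called higher and 7 lower, with a median of -0.49. Their summed signal was 19432 to 23794 in STMN1-/- MEFs, against 30958 to 32868 in STMN1+/+ MEFs, over 11 genes with a value on every array. Fabp4 fell by 1.15 ± 0.07, Prdm16, a regulator of brown fat, by 0.53 ± 0.05 and Pparg by 0.43 ± 0.06 (limma adjusted p = 0.00122, 0.00435 and 0.0119). Cidea, which marks brown fat in mice, had 47.7 units in STMN1-/- MEFs, well above background on no array, against 180 units in STMN1+/+ MEFs. Dio2 rose by 0.65 ± 0.07 (limma adjusted p = 0.00418), and Ucp1, the uncoupling protein of brown fat, was too dim to be tested. The part of these markers in the Cox8b result was not tested. Of 9 macrophage markers 1 was called higher and 2 lower, and of 8 epithelial markers 0 and 7. Over all tested genes the shares were 12.2% higher and 11.6% lower. Of 10 fibroblast markers, 8 were called higher and 1 lower, and all were well above background on every array in both genotypes.

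**Figure D5:**
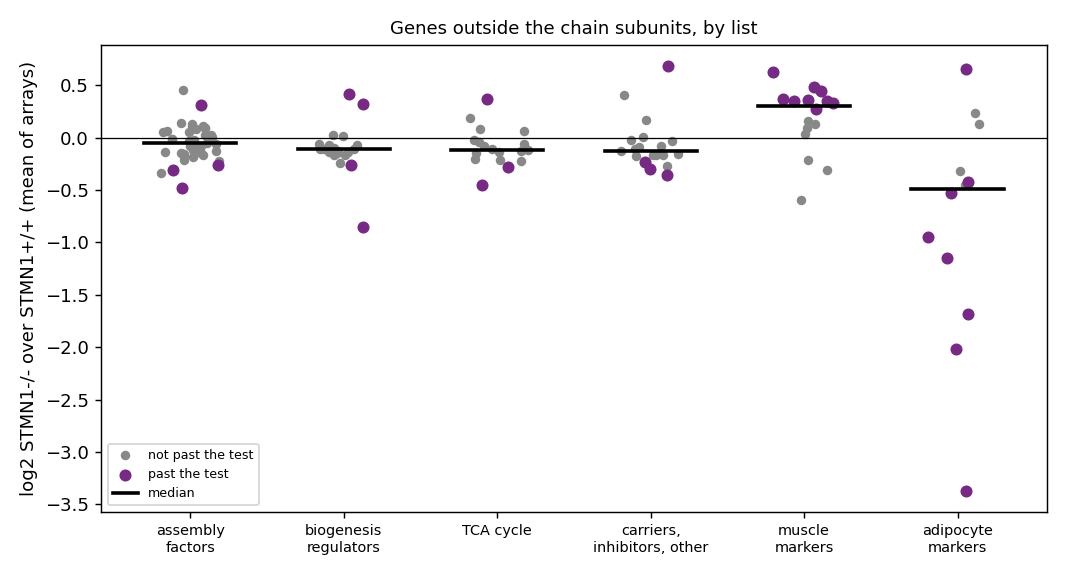
Mean log2 ratio over the arrays (y axis, STMN1-/- over STMN1+/+ MEFs) of the tested genes in 6 lists (x axis), with genes past the test in purple and a bar at each median. The 4 mitochondrial lists have medians from -0.13 to -0.06, the muscle markers one of 0.30 and the adipocyte markers one of -0.49.

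A feature that the name rule did not use is the promoter sequence. Many nuclear respiratory genes are known to carry sites for NRF1, whose consensus holds the letters GCATGCGC, and for ETS factors such as GABP, which bind a core of CCGGAAGT. Promoters from RefSeq (build GRCm38.p6, 250 bases before to 50 after the annotated start) were found for 68 members, 73 in all. Searched on both strands, GCATGCGC stood in 11 of the 73 (15.1%) and in 891 of all 32851 promoters (2.71%). CCGGAAGT stood in 5 of the 73 (6.85%) and in 1277 of all (3.89%), and neither motif contains the other. The 11 members with GCATGCGC had a median log2 ratio of -0.07, from -0.35 to 0.03, and the 57 without it one of -0.09. None of the 11 was called, and of the 57 without it 2 were called lower. With so few calls this cannot tell the groups apart. Cox6a2, the member called higher, had no promoter among those found and is in neither group. Nrf1 itself stood at 0.01 ± 0.09 and Gabpa at -0.10 ± 0.05 (limma adjusted p = 0.942 and 0.235).

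The windows around the letters are shown for members of 4 complexes and for Cycs, chosen where the window lies wholly before the start, with GCATGCGC in capitals.
Ndufa6, chr15:82354347-82354394, - strand: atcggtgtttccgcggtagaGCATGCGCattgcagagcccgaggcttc
Sdhb, chr4:140961197-140961244, + strand: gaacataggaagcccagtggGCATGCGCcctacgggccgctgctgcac
Cox6a1, chr5:115349091-115349138, - strand: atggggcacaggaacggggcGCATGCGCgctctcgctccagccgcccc
Atp5g2, chr15:102671060-102671107, - strand: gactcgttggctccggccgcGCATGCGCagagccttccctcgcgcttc
Cycs, chr6:50566602-50566649, - strand: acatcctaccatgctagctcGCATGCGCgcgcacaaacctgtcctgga

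The 250 bases before the start of the 2 members called lower hold neither motif and are shown in lower case throughout.
Cox8b, chr7:140900447-140900696, - strand: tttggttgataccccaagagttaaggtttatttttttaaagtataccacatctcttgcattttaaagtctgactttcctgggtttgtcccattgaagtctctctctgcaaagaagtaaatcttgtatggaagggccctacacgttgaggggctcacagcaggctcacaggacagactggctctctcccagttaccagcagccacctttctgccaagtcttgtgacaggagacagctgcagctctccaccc
Ndufb5, chr3:32736813-32737062, + strand: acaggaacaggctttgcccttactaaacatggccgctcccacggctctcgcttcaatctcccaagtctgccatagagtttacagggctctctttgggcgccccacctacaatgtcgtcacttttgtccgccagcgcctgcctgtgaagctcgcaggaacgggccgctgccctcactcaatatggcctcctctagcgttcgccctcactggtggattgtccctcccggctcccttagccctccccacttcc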

How the data were processed

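The deposited intensity values are processed signals of Agilent's Feature Extraction software (version 9.5.3.1), with background detrending and LOWESS dye normalization within each array. The log10 ratio column of the deposited files served as an alternative. The authors' deposited probe lists, which hold log2 values of probes that passed their own filters and tests, were not used.

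Log2 ratios of STMN1-/- over STMN1+/+ were formed from processed signals and turned by the dye labels. Outlier spots were left out, and spots of a probe averaged. A probe was kept where at least 1 array had it well above background in either genotype. The ratios were compared with 0 by limma (3.58.1; R 4.3.3; two-sided, Benjamini-Hochberg over all probes, threshold 0.05), after tests on simulated data. All arrays share 1 slide and 1 scan, so no block was possible.

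Named were called members, isoform families, core subunits, the 4 largest dye gaps, members whose probes disagree, non-subunits and called list genes, up to 4 a list. Not every gene under this rule is reported here. Members and lists were chosen with earlier results of these data known. Of the 117 member probes, 103 matched RefSeq by accession, 12 by symbol and 2 by synonym. The alternatives were another background correction and normalization, the ratio column, centring, scaling, 2 other filters, outlier spots kept, a dye coefficient, both pairings of arrays, the methods' t-test, the median over probes, subunits only and each array left out. The number of arrays limits the precision.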

Additional observations from a re-analysis of the deposited data

Results flagged for a closer look

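Each named gene with a value on all 4 arrays, and the medians of all members and of each complex, 45 series in all, were searched for an array that lies far from the other 3 (Dixon's test), which chance alone finds in about 1 of 20 series. Ndufb5 was the only one found. Its log2 ratio of STMN1-/- over STMN1+/+ was -0.22 on array 2, against -0.32 to -0.31 on the other arrays, so the outlying array is the one with the smallest difference.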

How the results depend on the processing

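The 44 named members were refitted under up to 16 alternatives each, 701 fits in all, of which 671 kept their side of the threshold, 11 lost a call and 19 gained one, with none called in the opposite direction. The lost calls were those of Cox6a2 under normexp and loess, of Cox8b under 5 alternatives and of Ndufb5 under 5. The count of members called higher (1) became 0 with normexp and loess and 2 with a dye coefficient. The count called lower (2) became 1 with normexp and loess, without a filter on dim probes and with the methods' t-test, 4 with probes well above background on all arrays, 5 with the median over probes and 18 with a dye coefficient, and lay between 0 and 1 with 1 array left out. With array 2 or array 4 left out it was 0 by limma, with 4 and 7 members lower at an unadjusted p under 0.05 (over all genes, 15.1% and 15.7%). Over all genes, normexp and loess called 840 higher and 906 lower against 2291 and 2172 as reported, no filter 1480 and 1329, the methods' t-test 1541 and 1385, a dye coefficient 3799 and 3649, and leaving out 1 array called 1097 to 1265 higher and 972 to 1095 lower. The dye coefficient, called for 0 members, was called for 23 with normexp and loess (over all genes, 9.35%) and for 9 with probes well above background on all arrays (over all genes, 17.3%). Medians moved by less than the spread between arrays, except for complex II, which lay between -0.19 and -0.11 with 1 array left out. The causes of these changes were not tested. Dim signal limits Cox8b and Cox4i2, 3 usable arrays limit Ndufb3 and Cycs, and the 4 arrays limit all.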
